A study of Caenorhabditis elegans with 2 samples.

Results

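The results concern the calmodulin gene cmd-1 of Caenorhabditis elegans and the long intergenic noncoding RNA gene linc-128 upstream of it, in a ChIP-seq map of the protein MADF-9. The locus was taken as everything within 10 kb of the cmd-1 gene or of the strong peak in linc-128, which is 26794 bp of chromosome V (chrV:1141396-1168189, ce11). It held 39 of the 86867 ranked regions in the list made from both replicates, and 2 of the 1637 peaks in the thresholded set. The locus was chosen by the signal of the linc-128 peak in these data, so the values below describe it and were not tested.

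Chromatin came from whole L4 larvae of strain RW12324, 48 hours of age per the labels and synchronized by starving L1 larvae. The worms carried st12324, a CRISPR insertion on chromosome IV that adds TY1, EGFP and 3xFLAG tags to madf-9. The precipitating antibody was against GFP, and the chromatin was sonicated to 200 to 800 bp. All samples formed 1 group of 2 biological replicates, so both carried the tagged allele. No untagged or input library was analysed here, and signal that would appear without the tagged protein was not tested. Whole animals were used, so the cells in which the protein lay at this locus cannot be told apart. Nothing beyond the replicate numbers says how the cultures were kept apart, and the sequencing depth is unknown because the lists hold no counts.

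Calmodulin is a small calcium sensor that binds calcium through EF hands, changes shape, and then binds and regulates many other proteins, among them protein kinases and the phosphatase calcineurin. Long intergenic noncoding RNAs are transcribed from their own loci between protein-coding genes and carry no long open reading frame. The MADF domain is a DNA-binding fold related to Myb, named after the Drosophila transcription factor Adf-1.

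The sequence under the linc-128 peak is shown first because it holds a long palindrome and repeated copies of a short word at its summit. The peak is 251 bp wide in the combined list, and the 228 bp called in replicate 1, which lie within it, are given as chrV:1151410-1151637 (ce11), 5′ to 3′ on the plus strand, the strand of both genes. Capitals mark an 18-bp perfect palindrome at chrV:1151505-1151522, that is, a stretch equal to its own reverse complement.
linc-128 peak: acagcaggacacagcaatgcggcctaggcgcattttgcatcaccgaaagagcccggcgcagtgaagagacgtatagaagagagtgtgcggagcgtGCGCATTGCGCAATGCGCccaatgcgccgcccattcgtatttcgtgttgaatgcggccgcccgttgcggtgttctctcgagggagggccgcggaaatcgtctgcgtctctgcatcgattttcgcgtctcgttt
The middle of the palindrome lies 17 bp before the summit of the combined list, and the summit of replicate 1 lies inside it. The whole 251-bp peak has a GC content of 58.6% and holds 30 CpG dinucleotides.

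For comparison, the 100 bp centred on a summit are shown for the linc-128 peak, for other regions of the locus and for the peaks next above it in rank. Capitals mark the word TGCGC or its reverse complement GCGCA, where matches may overlap.
linc-128 summit, chrV:1151481-1151580: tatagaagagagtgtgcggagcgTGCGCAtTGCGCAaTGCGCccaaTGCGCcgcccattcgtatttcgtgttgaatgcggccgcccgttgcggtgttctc
6346 bp upstream of cmd-1, chrV:1149875-1149974: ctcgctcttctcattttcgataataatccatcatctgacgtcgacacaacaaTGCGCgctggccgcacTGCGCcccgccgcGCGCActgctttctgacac
2053 bp upstream of cmd-1, chrV:1154168-1154267: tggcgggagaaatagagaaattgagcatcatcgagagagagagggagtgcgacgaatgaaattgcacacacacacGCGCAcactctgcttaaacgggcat
157 bp into cmd-1, chrV:1156378-1156477: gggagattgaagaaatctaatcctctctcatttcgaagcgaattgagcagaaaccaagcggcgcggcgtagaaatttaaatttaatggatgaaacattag
rpl-3 peak, chrIII:3867532-3867631: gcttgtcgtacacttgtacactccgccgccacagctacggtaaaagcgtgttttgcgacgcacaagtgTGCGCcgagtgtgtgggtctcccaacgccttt
tasp-1 peak, chrIII:10759198-10759297: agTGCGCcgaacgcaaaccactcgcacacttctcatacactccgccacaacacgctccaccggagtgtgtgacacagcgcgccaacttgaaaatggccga
mog-4 peak, chrII:14561800-14561899: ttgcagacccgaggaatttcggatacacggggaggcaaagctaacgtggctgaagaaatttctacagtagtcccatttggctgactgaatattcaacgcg
The linc-128 window holds 6 copies of the word, and 4 copies fall in the palindrome. Each TGCGCA is counted under both forms of the word. In a palindrome every copy comes with its reverse complement, so the number of copies and the palindrome are not separate features. The whole peak holds 9. The region 6346 bp upstream of cmd-1 holds 3 copies, the region 2053 bp upstream holds 1, and the window inside cmd-1 holds 0. In the locus, the windows 9509 and 1496 bp upstream of cmd-1 and 8075 bp after its start hold 1 each. Those 6787 and 2999 bp upstream and 2174 and 3049 bp after the start hold 0. Among the 6 peaks next to linc-128 in rank, the rpl-3 and tasp-1 windows hold 1 each. The others, at mog-4, K08F11.1 and W02H3.3, hold 0.

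At least 1 copy of TGCGC or GCGCA was found in 25.1% of the 1637 thresholded windows and in 7.35% of all 86867 ranked windows. The linc-128 window was the 1 thresholded window with at least 6 copies (0.0611%), and 7 ranked windows reached that number (0.00806%). A palindrome of at least 18 bp occurred in 2 thresholded windows (0.122%) and in 269 ranked windows (0.31%). The linc-128 window had a GC content of 59% and 13 CpG, against medians of 51% and 7 CpG in thresholded windows and 40% and 3 CpG in ranked windows. Taken singly, these values were not rare among thresholded windows, since 12.3% had at least that GC content and 5.44% at least that many CpG. Among ranked windows the shares were 2.08% and 0.582%. The tasp-1 and rpl-3 windows had a GC content of 58% and 57%, and the region 6346 bp upstream of cmd-1 had 57% with 12 CpG. The palindrome and the word were chosen after the sequence had been read, so these shares describe the window and support no claim about what the protein recognizes. Part of the palindrome recurs directly after it, in that CAATGCGCC occurs 2 times, starting 16 and 7 bp before the summit.

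Words found earlier in peaks of this same data set were also looked up on both strands. AGACGCAG was present in 7.21% of thresholded windows and 1.11% of ranked windows, and the linc-128 window held 0 copies, while the whole peak held 1 copy 74 bp after the summit. CTGAGCTA, in 4.64% of thresholded and 0.3% of ranked windows, had 0 copies in the peak. The B box, an internal promoter element of tRNA genes, was in 7.82% of thresholded and 0.444% of ranked windows and had 0 copies in the peak. The nearest annotated tRNA gene lay 294135 bp away.

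The gene linc-128 (WBGene00219734) is annotated at chrV:1150906-1153207 on the plus strand as 1 exon of 2302 bp. The gene cmd-1 (WBGene00000552), at chrV:1156271-1158189 on the same strand, starts 3063 bp after the end of linc-128. Upstream of linc-128 lies cutl-22 (WBGene00020663), a cuticlin-like gene, and downstream of cmd-1 lies T21H3.5 (WBGene00020664) on the minus strand, followed by ptr-16 (WBGene00004230), a patched-related gene. The distance from cmd-1 to the next protein-coding gene upstream is 9769 bp, against a median of 1058 bp over 18592 genes, and 95.1% of genes have a smaller one.

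MADF-9 signal at the linc-128 peak was 321 in replicate 1 and 241 in replicate 2, a mean of 281 ± 56.3 (SD, n = 2). The signal is the strength value that the authors gave each peak. Its scale is unstated, and each replicate's value comes from its own list. The list of both replicates together gave 573, which is the authors' combined value with no error of its own. Both replicates therefore placed a strong peak within linc-128, and no other region of the locus came near it in either.

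The summit lay at position 1151531 in the combined list, 625 bp into the linc-128 exon and 4740 bp upstream of cmd-1. Replicate 1 had its summit at 1151513 in a peak of 228 bp, and replicate 2 at 1151533 in a peak of 202 bp. The shift of 20 bp between them was close to the median shift of 23 bp over 1603 thresholded peaks found in both replicates. The ratio of replicate 1 to replicate 2 was 1.33 at linc-128, against a median of 1.18 over those peaks, whose 5th to 95th percentiles ran from 0.739 to 1.95.

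By signal the peak ranked 5 of 1637 in the set between replicates, 3 of 1002 in replicate 1 alone and 6 of 806 in replicate 2 alone. It was the strongest of the 221 thresholded peaks on chromosome V. Its signal was 6.41 times the median of the thresholded set. The irreproducible discovery rate (IDR), the expected share of irreproducible regions among those ranked at least as reproducible, was at its lowest possible value of 1e-05 in each list.

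**Figure D1:**
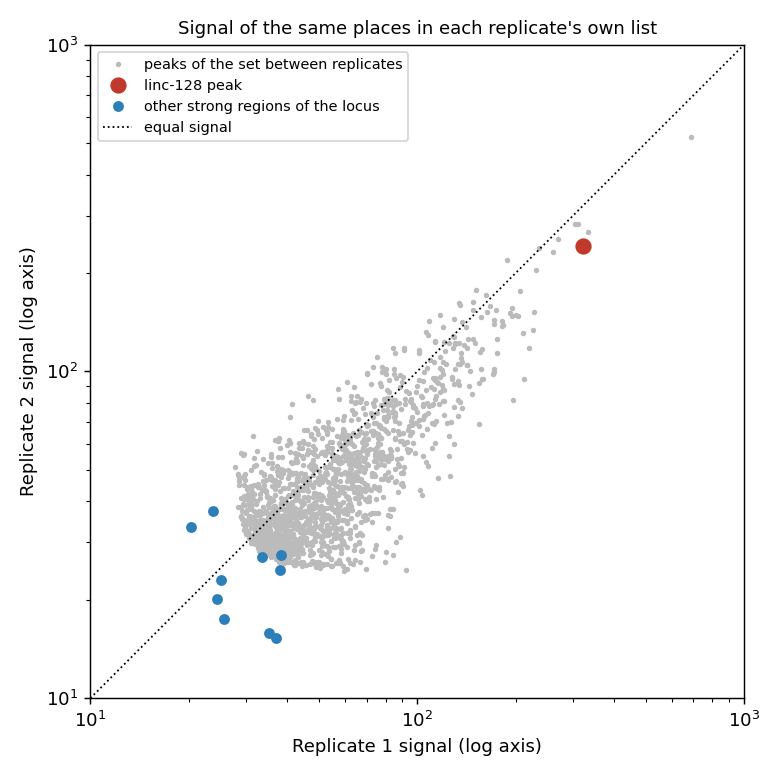
Signal in replicate 1 (x axis, log scale) and replicate 2 (y axis, log scale), each from that replicate's own list, for the linc-128 peak (red), the other strong regions of the locus (blue) and thresholded peaks found in both replicates (grey). The linc-128 peak, at 321 and 241, lies among the highest points and apart from the other regions of its locus, which reach at most 38.3 in replicate 1 and 37.4 in replicate 2.

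The second strongest region of the locus in each list was 8.06-fold weaker than the linc-128 peak in the combined list, 8.38-fold in replicate 1 and 6.45-fold in replicate 2. It was the region about 2 kb upstream of cmd-1 in the combined list and replicate 1. In replicate 2 it was a region in an intron of T21H3.5 with a signal of 37.4, and the upstream region had 27.4. The peak held 35.0% of the summed signal of the 39 regions in the combined list, 38.5% over 26 regions in replicate 1 and 36.0% over 24 regions in replicate 2. The 38 other regions had a median signal of 24.0, against 23.6 for all ranked regions, and the weakest had 3.29. Thus the median of the other regions was of ordinary height, with 1 region far above all of them.

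Ranked regions were nonetheless closely spaced, with 1.46 per kb in the locus against 0.866 per kb of the genome. This was not particular to the locus, since 28 other regions lay within 10 kb of the linc-128 summit and 28 within 10 kb of the rpl-3 summit. The other peaks next to linc-128 in rank had 10 to 23. Among the 39 regions, 11 (28.2%) exceeded the 90th percentile of all ranked regions, a signal of 41.7. Of these 11, 7 had their summit upstream of cmd-1, where more of the locus lies than after the cmd-1 start. The higher signal was in replicate 1 for 9 and in replicate 2 for 2. Replicate 1 was also the higher among thresholded peaks in general, with a median ratio to replicate 2 of 1.18, so neither count is read as particular to the locus. Over the 39 regions, 19 overlapped a region of each replicate's own list, 10 a region of 1 replicate and 10 of neither. The same shares over all ranked regions were not computed, so nothing particular to the locus is read from these counts.

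**Figure D2:**
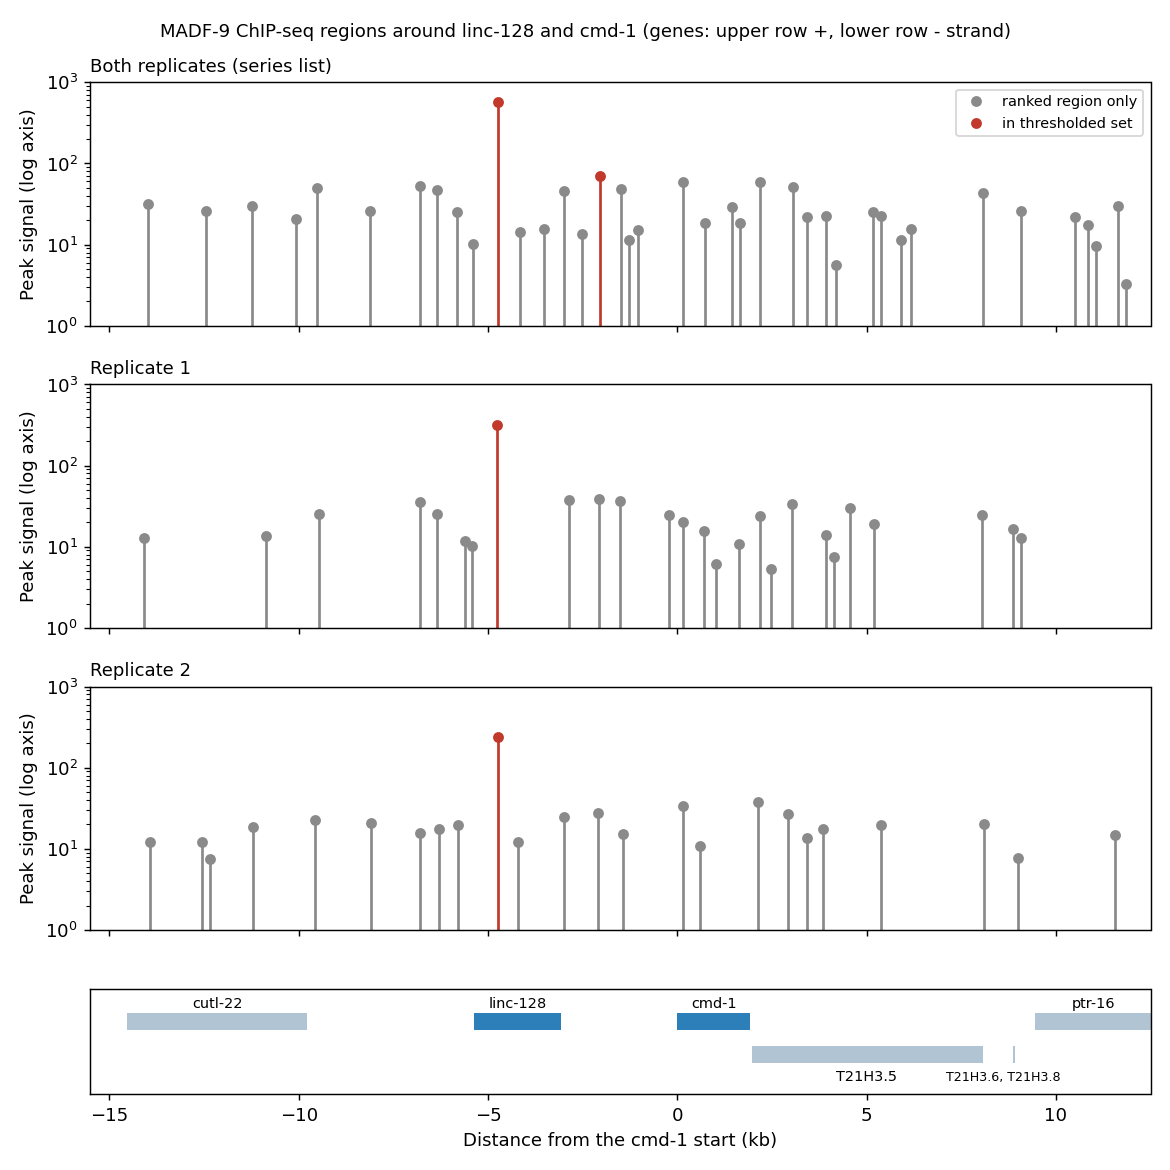
Signal of each ranked region (y axis, log scale) by the distance of its summit from the cmd-1 start in kb (x axis), in the list of both replicates, in replicate 1 and in replicate 2, with annotated genes beneath. Red marks regions in the thresholded set of that list: the linc-128 peak in all panels, and in the top panel also the region 2053 bp upstream of cmd-1.

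Between linc-128 and cmd-1 the strongest region lay 2053 bp upstream of cmd-1, at chrV:1154088-1154347, and overlapped no annotated gene. Its signal was 38.3 in replicate 1 and 27.4 in replicate 2, and 71.1 in the combined list. With an IDR of 0.00754 it was the other thresholded peak of the locus. The 2 thresholded peaks make up 5.13% of the 39 regions, beside 1.88% of ranked regions genome-wide, from which nothing is read because the locus was chosen for its peak. Among ranked regions with a signal within 10% of 71.1, 61.0% were in the thresholded set.

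The call on this second region differed between the authors' sets. In the set from pooled data, where 2.16% of ranked regions pass, its IDR was 0.0194 and it was left out. That set held instead a region in an intron of T21H3.5, 2174 bp after the cmd-1 start, with an IDR of 0.00707 there and of 0.0410 between replicates. This region had a signal of 23.7 in replicate 1, 37.4 in replicate 2 and 59.4 combined. Each replicate's own set held the linc-128 peak alone, with 1.99% of ranked regions passing in replicate 1 and 1.70% in replicate 2.

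Just outside the threshold of 0.01 in the list between replicates were a second T21H3.5 intron region, 3049 bp after the cmd-1 start, and a region 2999 bp before it. The T21H3.5 region had an IDR of 0.0117 and a signal of 33.4 in replicate 1, 27.0 in replicate 2 and 50.6 combined, and its IDR in the pooled list was 0.0258. The region 2999 bp upstream had an IDR of 0.0142 and a signal of 38.1 in replicate 1, 24.7 in replicate 2 and 45.4 combined, but in the pooled list its IDR was 0.134. The replicate summits lay 155 bp apart there and 125 bp apart at the T21H3.5 region, against a median shift of 23 bp over thresholded peaks. The paired values may therefore not describe 1 site.

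At the start of cmd-1 itself a ranked region was present, but no thresholded set held it. Its summit lay 157 bp after the start, in the first intron, within chrV:1156298-1156557. Its signal was 20.4 in replicate 1, 33.3 in replicate 2 and 58.3 combined, so the replicates ordered it and the region 2053 bp upstream differently. The IDR was 0.135 between replicates and 0.0179 in the pooled list. Of ranked regions with a like signal, within 10%, 9.51% were in the thresholded set. The 3 other regions within cmd-1 were weaker, with combined signals of 18.3 in an exon and 28.7 and 18.7 in the 3′ untranslated region.

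Within linc-128, the other 2 ranked regions had combined signals of 14.5 and 15.8, so the signal over this gene was concentrated in 1 place. Between linc-128 and cmd-1, a region 1496 bp before the cmd-1 start had a signal of 37.0 in replicate 1, 15.3 in replicate 2 and 48.0 combined, with an IDR of 0.481 between replicates and of 0.0863 in the pooled list. It was among the least even of the strong regions between replicates.

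Upstream of linc-128, 3 intergenic regions were above the 90th percentile. The region 9509 bp before the cmd-1 start had a signal of 25.0 in replicate 1, 23.0 in replicate 2 and 49.2 combined, with an IDR of 0.0730. The region 6787 bp before it had 35.3, 15.9 and 53.2 in the same order, with an IDR of 0.388. The region 6346 bp before it had 25.7, 17.5 and 47.3, with an IDR of 0.220. None of these passed the threshold, and the 100 bp around the summit at 6787 bp held 1 copy of AGACGCAG. At the region 9509 bp upstream, the replicate summits lay 103 bp apart.

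The outermost genes, cutl-22 and ptr-16, carried no region above the 90th percentile in the locus. The 4 regions within cutl-22 had combined signals of 20.5 to 31.3, and the 5 in the part of ptr-16 that lies inside the locus had 3.29 to 30.2. T21H3.6 and T21H3.8 are short noncoding RNA genes on the minus strand, of which T21H3.6 overlaps the 5′ end of T21H3.5. In T21H3.8 the combined list had no ranked summit, while replicate 1 alone had a region with a signal of 16.4. The region in T21H3.6 had a signal of 24.4 in replicate 1, 20.1 in replicate 2 and 43.6 combined, with an IDR of 0.134. Its summit in replicate 2 lay outside annotated genes, 54 bp from that of replicate 1.

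Beyond the locus, the next thresholded summit was 70089 bp from the linc-128 summit on the cutl-22 side and 45704 bp on the cmd-1 side. The region 2053 bp upstream of cmd-1, at 2687 bp from the linc-128 summit, was the nearest thresholded summit, and 49.7% of thresholded peaks likewise have another within 10 kb.

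The peaks of similar rank all lay closer to a protein-coding start than the 4740 bp at linc-128, though 1 of them only slightly closer, at 4004 bp. All 6 had summits outside annotated genes. Just above linc-128 were peaks 251 bp upstream of mog-4, a splicing helicase gene, 59 bp upstream of tasp-1, which encodes a taspase, and 272 bp upstream of rpl-3, which encodes a protein of the large ribosomal subunit. The mog-4 peak had a signal of 332 in replicate 1, 268 in replicate 2 and 609 combined. The tasp-1 peak had 311, 282 and 598 in the same order, and the rpl-3 peak had 304, 284 and 584. The 3 peaks just below linc-128 lay 461 and 2894 bp after the start of K08F11.1 and 4004 bp after that of W02H3.3, with combined signals of 522, 491 and 483. The replicate values at linc-128 fall within the range of these neighbours in replicate 1 and in replicate 2.

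The linc-128 peak exceeded every other region within 10 kb by 8.06-fold, against 10.7-fold at mog-4, 11.3-fold at tasp-1 and 5.62-fold at rpl-3. The K08F11.1 peaks lay near each other, with ratios of 1.06 and 0.942, and the W02H3.3 peak had a ratio of 2.87. A single dominant region was thus shared with the peaks ranked just above. The distance to the nearest coding start was larger at linc-128 than at the 6 others, but 4740 bp there was not far from 4004 bp at the W02H3.3 peak.

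**Figure D3:**
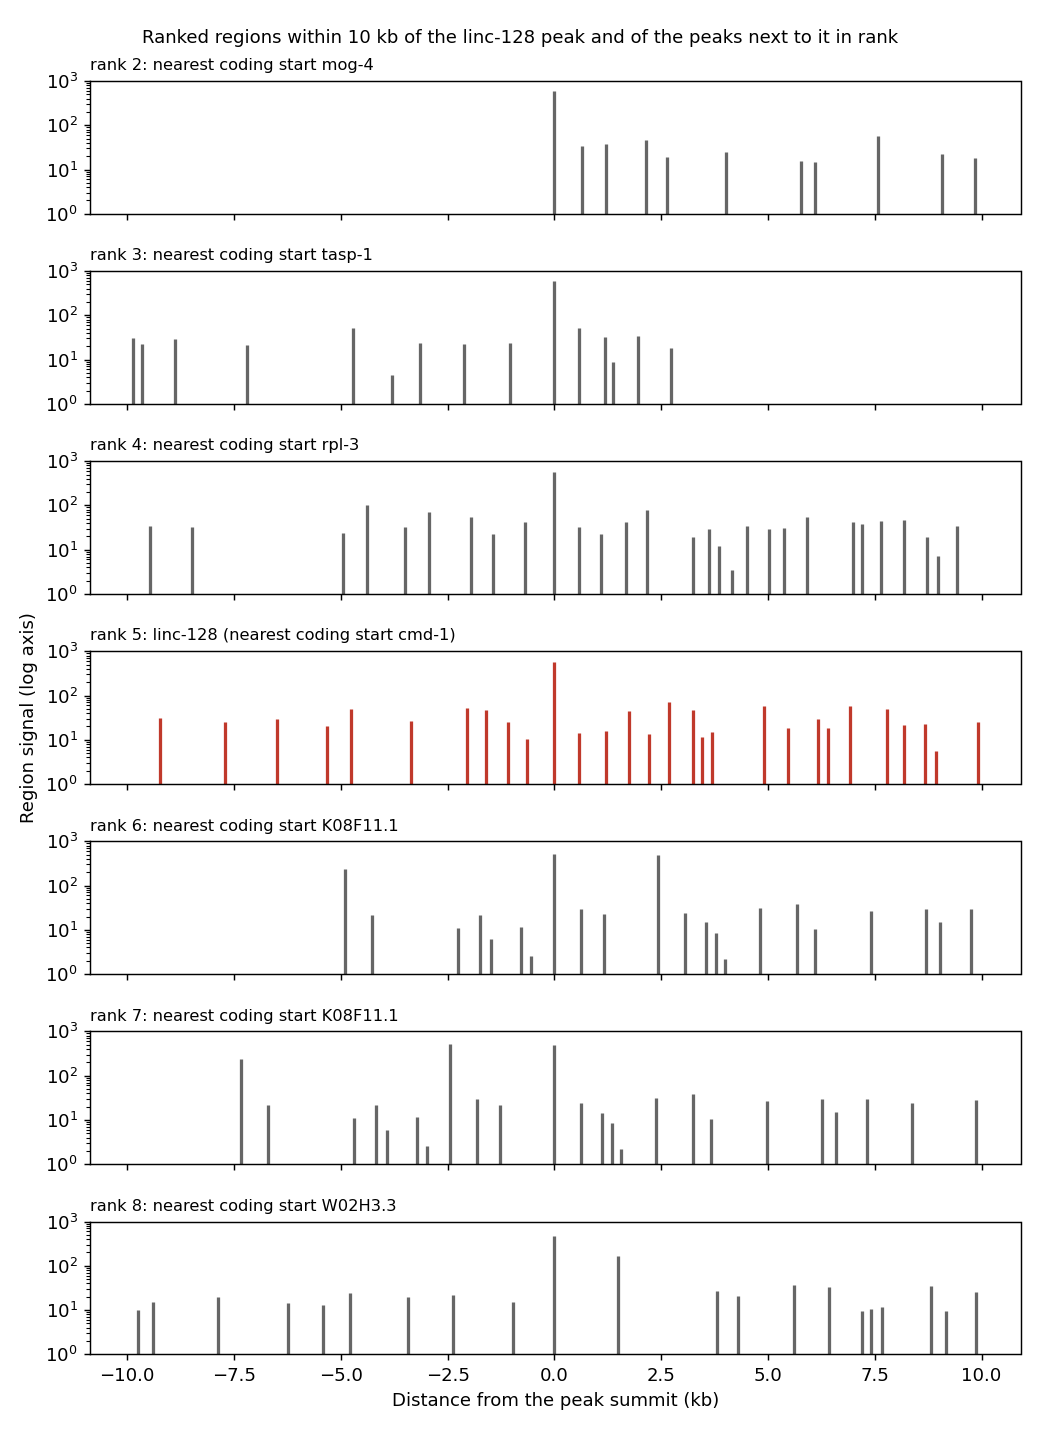
Signal of ranked regions (y axis, log scale) within 10 kb of the linc-128 summit (red) and of the 3 peaks ranked just above and the 3 just below it (grey), by distance from the summit in kb. The linc-128 peak stands 8.06-fold above the next region within 10 kb, while the K08F11.1 peaks are accompanied by each other.

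Among 194 annotated lincRNA genes, 99 contained a ranked summit and 4 (2.06%) a thresholded one. The linc-128 signal of 573 was 7.75 times that of linc-109, the second. The linc-109 region had a signal of 39.4 in replicate 1, 32.7 in replicate 2 and 73.9 combined. K07C10.8 had 45.6, 30.6 and 72.1 in the same order, and linc-91 had 46.1, 32.6 and 71.0. The median of the highest signals in the 99 genes was 29.2. The nearest coding starts to these 3 lincRNA summits were those of tat-3, ptr-13 and chd-7, at 2751, 4831 and 2836 bp. A coding start several kilobases downstream was therefore also found at the other lincRNA genes with a thresholded summit.

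Genes of calcium signalling were listed by role, and 43 of 45 listed symbols were found in the annotation. The promoter window began 1000 bp before an annotated transcript start and ended 200 bp after it. All annotated protein-coding starts of a gene were searched, so genes with more starts had more sequence searched. The shares and medians below were not adjusted for this. A ranked summit lay in 39 of the 43 promoters (90.7%), against 69.2% of 19973 protein-coding genes, and the median signal of the strongest region was 33.4, against 29.9. The 1 gene with a thresholded summit was crt-1, which is 2.33% of the list, against 4.71% of all protein-coding genes.

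The crt-1 gene encodes calreticulin, a calcium-binding chaperone of the endoplasmic reticulum. Its peak lay 275 bp upstream of the start, with a signal of 55.7 in replicate 1, 34.6 in replicate 2 and 90.0 combined, and an IDR of 0.00142. The calmodulin-like gene cal-5 came next with 40.9, 25.5 and 60.5 and an IDR of 0.0105, just outside the threshold. Then came cmd-1 with its intron region of 58.3 combined, above 91.0% of the protein-coding genes that have a region. The gene micu-1, a regulator of the mitochondrial calcium uniporter, had 57.2 combined, and unc-43, which encodes the calmodulin-dependent kinase CaMKII, had 51.6. This order is by combined signal, and the replicates placed cmd-1 differently. In replicate 1 cmd-1 had 20.4, below micu-1 at 44.2 and unc-43 at 29.0. In replicate 2 it had 33.3, above micu-1 at 16.4 and unc-43 at 20.5. The IDR of the cmd-1 region was 0.135. The 5 calmodulin-regulated kinases ranged from 25.6 to 51.6, the calcineurin genes tax-6 and cnb-1 had 33.4 and 28.9, and the 4 calcium pumps ranged from 36.2 to 43.5. The calcium channels ranged from 17.2 to 45.1, the neuronal calcium sensors from 20.7 to 45.3, and none of these promoters passed the threshold.

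**Figure D4:**
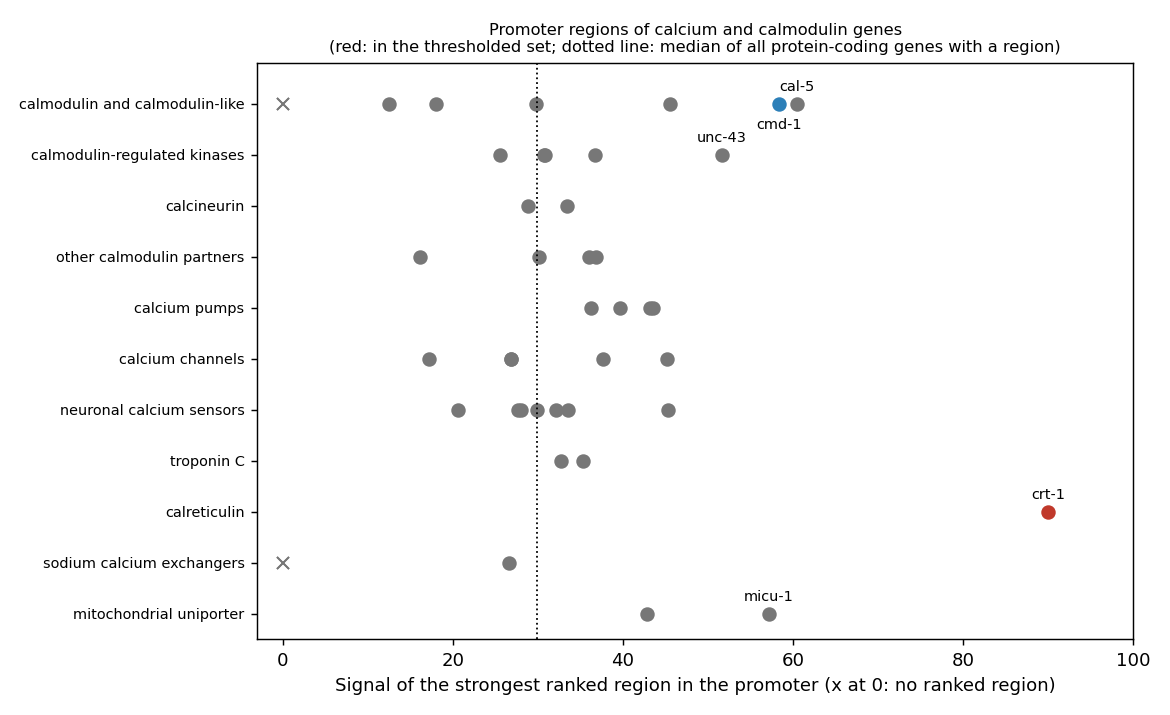
Combined signal of the strongest ranked region in the promoter of each calcium or calmodulin gene (x axis), by role (y axis); crosses at 0 have no ranked region, red marks the thresholded set, blue marks cmd-1, and the dotted line is the median of 29.9 over all protein-coding genes with a region. Only crt-1, at 90.0, is in the thresholded set, and cmd-1 at 58.3 lies behind crt-1 and cal-5 in combined signal. The cmd-1 region had 20.4 in replicate 1 and 33.3 in replicate 2.

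Widening the search to 10 kb on either side of a gene found a thresholded summit for 14 of the 43 genes (32.6%), against 27.3% of all protein-coding genes. That search took in the gene itself, so longer genes had more sequence searched. These shares were not adjusted for gene length, and nothing is read from their difference. The linc-128 peak, by which the locus was chosen, is counted there for cmd-1. Its distance from the cmd-1 start keeps it out of the promoter window. Whether it bears on transcription of cmd-1, of linc-128 or of neither cannot be told from peak lists, and was not tested.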

How the data were processed

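The authors deposited peak lists on ce11, per the labels, as all ranked regions and as thresholded sets, for each replicate and for both together. The set used here is the one deposited as conservative, called the set between replicates, and the other series set is called pooled. These names follow the deposited names, since no header describes the inputs. Neither the peak caller nor the aligner is given in the sources used here. Per peak, the deposited score is a scaled IDR, and every thresholded set has scores of at least 830, an IDR of at most 0.01. The ranked list between replicates held 1750 regions at that IDR, more than the 1637 in the deposited set. The deposited signal has no stated scale. The deposited −log10 IDR, also treated as a score, gave the IDR values, and the deposited −log10 q values were read but set no call. A further 32 columns of the 4 ranked lists, holding values of each list's inputs that no header names, were not used.

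Each replicate's value is that of its own region sharing the most bases, minimum 1 bp. Annotation was Ensembl release 115 for WBcel235, which is ce11 under another name, and bases were read from RefSeq's copy. Coordinates are 1-based. Python 3.11.15, numpy 2.4.6, pysam 0.24.0 and matplotlib 3.10.9 were used, and the scripts were checked on simulated data. No test was run. Named genes are those overlapping the locus, the nearest starts of the 3 peaks ranked just above and just below, lincRNA genes with a thresholded summit, and listed calcium genes with a thresholded promoter. Other calcium genes were named after their values were seen. The locus, lists and words were chosen with earlier results of these data known, and the palindrome and TGCGC after reading the sequence. Alternatives covered the other sets, each replicate, the IDR threshold and the window sizes.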

Additional observations from a re-analysis of the deposited data

How the results depend on the processing

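A count was taken as moved when it changed by more than 1.5 times, and a signal or share when it changed by at least the SD of the replicates. By these limits 20 of 46 alternatives moved and 26 did not. Reversal could not be scored, since 1 group offers no contrast with a direction. No paired analysis was possible because there is 1 group and no groups share replicate numbers. With 1 replicate at a time, the linc-128 signal was 241 to 321, its rank 3 to 6, the thresholded peaks in the locus 1 in either replicate, the ranked regions 24 to 26, the share of signal in the linc-128 peak 36.0% to 38.5%, the region at the cmd-1 start 20.4 to 33.3 with no call, and the listed calcium genes with a thresholded promoter 0 to 1. The single-replicate signals at linc-128 and at the cmd-1 start were compared with the combined values of 573 and 58.3. Those exceed the value of either replicate, so these signals being counted as moved does not measure stability. The crt-1 call was present in replicate 1 and absent in replicate 2. At an IDR of at most 0.05 the locus held 5 passing regions and the list 2 genes, crt-1 and cal-5. At 0.001 the locus held 1, the linc-128 peak, and the list 0. With 20 kb on either side the locus held 60 ranked regions and the peak 27.6% of the signal, and with 5 kb the peak held 41.6%. Within 10 kb of the gene, 14 listed genes had a thresholded summit. The 8-base words numbered 1 in the whole peak and 1 in 200 bp. Unknown depth, 2 replicates and the control not analysed here limit what can be said of weak regions. The alternatives for the palindrome and TGCGC windows were chosen after seeing the data.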
